A study of Bos indicus and Bos taurus with 17 samples.

Results

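The genes described here build and remodel the actin cytoskeleton, and 10 of them were chosen by name: ACTB, ACTG1, PFN1, CFL1, TMSB4X, TMSB10, CORO1A, LCP1, LSP1 and EZR. An entry belonged to the set when its gene name was one of these or when its joined name held one of them. The values cover 9 of the 10 names in 12 entries, out of 21631 distinct names and 61264 entries in all. PFN1, the profilin gene, was not found under that name and is not analysed here. ACTG1 was listed in 1 entry together with the microRNA bta-mir-3533. TMSB4X, LCP1 and LSP1 each had 2 entries, and the entry with the higher mean was used unless both are given. RNA came from milk cells of Kashmiri and Jersey cows that were captured with magnetic beads carrying an antibody to cytokeratin 18, an epithelial keratin. Milk was taken at day 15 (D15), day 90 (D90) and day 250 (D250) of lactation from cows in lactation 2 or 3, without any treatment named. In the labels each of the 6 groups of breed and stage had 3 samples, except Jersey D90 with 2, which makes 17. The methods of the study differ from the labels, since they describe the same number of cows in every group and a single lactation number. The pooled Jersey D90 value may thus rest on 1 more library than the labels name. The study's own read counts name 1 sample on 2 rows, the later of which repeats another sample's count of reads that passed quality control. The number of libraries is therefore uncertain. All samples of a stage carried the same month, so stage and season cannot be told apart. By those methods the same cows gave milk at every stage, while the labelled lactation numbers differ between stages. Expression is given as FPKM, a count of sequenced fragments corrected for transcript length and library size, with 1 pooled value per gene and group. No value per cow was used, so no value carries an error, no difference was tested against the spread between cows, and the number of reads behind each gene's value is unknown.

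Actin monomers assemble into filaments that push the cell membrane forward and give the cell its shape. White blood cells that crawl into tissue and milk turn these filaments over quickly, while epithelial cells use them to hold the apical surface and the cell junctions. Monomer-binding thymosins and profilin govern the pool of free actin, cofilin severs old filaments, and bundling, branching and membrane-linking proteins organise the rest. CORO1A, LCP1 and LSP1 are known mainly from white blood cells, and EZR is known from the apical surface of epithelia.

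The cells were checked against marker lists before the genes were compared. KRT18, the captured keratin, had 51.3, 9.13 and 11.5 FPKM in Kashmiri at D15, D90 and D250, and 33.7, 1.59 and 4.51 FPKM in Jersey. The summed FPKM of all 10 epithelial markers ranged from 98.2 in Jersey at D90 to 5853 in Kashmiri at D15. The 9 neutrophil markers found, of 11 listed, summed to between 195 and 630 FPKM in Kashmiri and between 4889 and 13930 FPKM in Jersey. The 10 macrophage markers summed to between 129 and 510 FPKM in Kashmiri and between 1067 and 2179 FPKM in Jersey. Markers common to white blood cells, 5 found of 6 listed, summed to 316 to 1219 FPKM in Kashmiri and 2800 to 4844 FPKM in Jersey. The summed T cell markers were highest in Kashmiri at D90, at 1530 FPKM, and lay between 148 and 371 FPKM in the other 5 groups. Red blood cell markers summed to at most 0.939 FPKM. In bulk RNA such as this, fewer cells of a type and less RNA per cell cannot be told apart. GAPDH, a gene that every cell uses, was listed at 0 in 4 of 6 groups, so a listed 0 is given as such and no ratio is taken from it. Rescaling also moved the middle of the data: the median log2 ratio over every gene tested lay between -0.13 and 0.15 in the 9 comparisons as deposited. When each group was brought to one total, leaving out 6 milk protein genes (the sum rescaling), it was 0.81 for Kashmiri D250 over D15 and -0.74 for Jersey over Kashmiri at D250. For the latter it was -0.52 when rescaled by the upper quartile and -0.02 by the median of ratios.

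TMSB10, a thymosin that holds actin monomers, had the highest level of the 9 genes in all 6 groups. In Kashmiri it had 2771 FPKM at D15, then 3729 at D90 and 1868 at D250. Jersey had 7932 FPKM at D15, then 6151 at D90 and 3683 at D250. TMSB10 ranked between place 60 and place 84 among all named genes in Kashmiri, and at places 6, 3 and 18 in Jersey at D15, D90 and D250. These places rest on the listed values. CSN2 led the study's own list of top genes in every group, but stood here at 0 in 5 of 6 groups. Top genes missing in this way would move TMSB10 up the order, so its places are uncertain. Each Jersey value of TMSB10 lay above the Kashmiri value of its stage, by log2 ratios of 1.52, 0.72 and 0.98, and this direction held under all 3 rescalings. Within Jersey the values stepped down from D15 to D250, with a log2 ratio of -1.11 over the whole span.

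**Figure D1:**
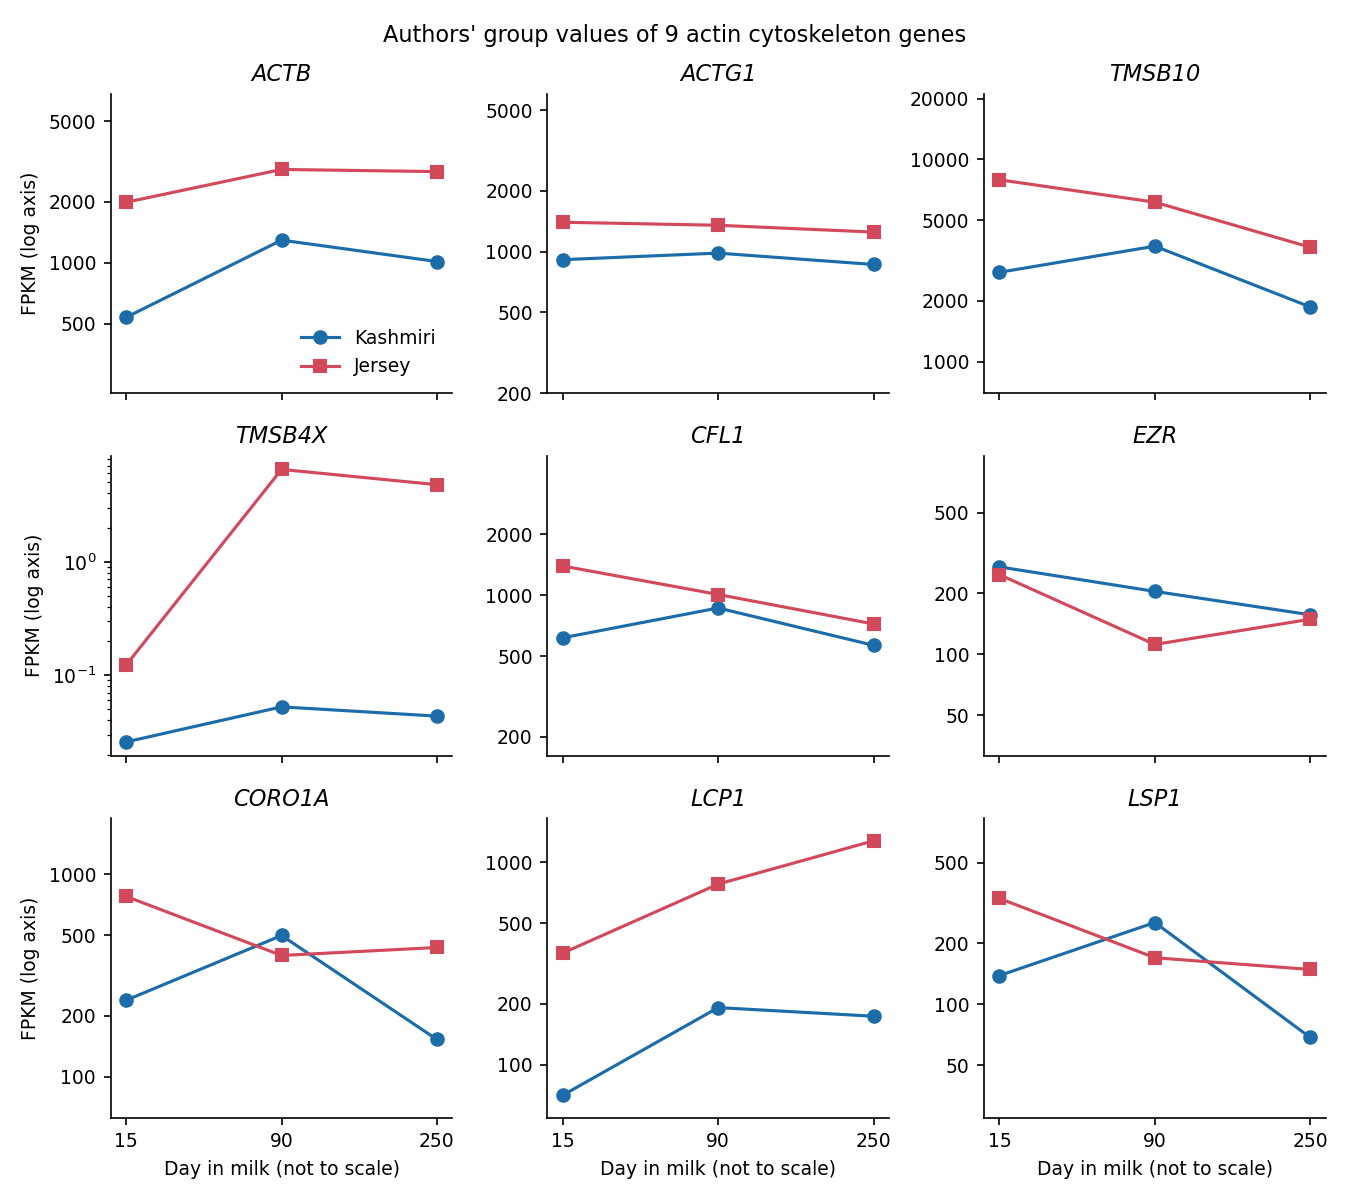
FPKM of the 9 genes (vertical log axes, 1 panel per gene) at D15, D90 and D250 in Kashmiri and Jersey cattle, where each point is 1 pooled group value without an error and days are not to scale. LCP1 ran from 70.7 FPKM in Kashmiri at D15 to 1277 FPKM in Jersey at D250, while EZR stayed between 112 and 270.3 FPKM.

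The cytoplasmic actins ACTB and ACTG1 encode beta and gamma actin, the subunits of the filaments in cells other than muscle. ACTB had 537 FPKM at D15, then 1292 at D90 and 1012 at D250 in Kashmiri. The Jersey levels were 1987 FPKM at D15, then 2887 at D90 and 2816 at D250. All 3 Jersey values of ACTB lay above all 3 Kashmiri values, and the Jersey level was 3.70-fold the Kashmiri level at D15, 2.23-fold at D90 and 2.78-fold at D250. The direction of these ratios was the same under all 3 rescalings. ACTG1 moved less, with 912, 982 and 863 FPKM in Kashmiri and 1396, 1348 and 1248 FPKM in Jersey at the 3 stages. Its breed log2 ratio, Jersey over Kashmiri, took the values 0.61, 0.46 and 0.53 in stage order, and the D250 ratio turned negative under the sum rescaling.

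The share of ACTB in the FPKM of both actins does not depend on the scaling of a group. It was 37.1% in Kashmiri at D15, then 56.8% at D90 and 54.0% at D250. In Jersey it was 58.7% at D15, then 68.2% at D90 and 69.3% at D250. ACTG1 was thus the higher actin in Kashmiri at D15, and ACTB in the other 5 groups. The coding sequences of the actins are similar, and the authors kept only reads that mapped to 1 place. The division of reads between ACTB and ACTG1 is uncertain to an unknown degree, and its effect on this share was not tested.

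CFL1, the non-muscle cofilin that severs filaments, had 617 FPKM at D15, then 866 at D90 and 566 at D250 in Kashmiri. The Jersey series ran from 1395 FPKM at D15 through 1009 at D90 to 722 at D250. The breeds were furthest apart at D15, with a log2 ratio of 1.18, against 0.22 at D90 and 0.35 at D250. The D250 ratio turned negative under the sum and the upper quartile rescalings.

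TMSB4X, the other monomer-binding thymosin, is one of the most abundant transcripts known in white blood cells, but both of its entries were low here. The first entry had 0.0258, 0.0526 and 0.0436 FPKM in Kashmiri at D15, D90 and D250. It had 0.123 FPKM in Jersey at D15, then 6.51 at D90 and 4.78 at D250. The second entry had 2.84 FPKM in Jersey at D15 and was listed at 0 in the other 5 groups. In Jersey the higher level was thus in the second entry at D15 and in the first at D90 and D250. The first entry gave a log2 ratio of 5.72 for Jersey D90 over D15. The study lists that change among its top differentially expressed genes. When both entries were summed, however, no TMSB4X ratio between Jersey stages passed the limit of 4-fold. The gene has near-identical copies elsewhere in mammalian genomes, so its values are uncertain, and the part of discarded reads in them was not tested.

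LCP1 encodes L-plastin, which bundles filaments in white blood cells. It had 70.7 FPKM at D15, then 191 at D90 and 174 at D250 in Kashmiri. In Jersey it had 356 FPKM at D15, then 779.9 at D90 and 1277 at D250. The Jersey level was 5.04-fold the Kashmiri level at D15, 4.08-fold at D90 and 7.36-fold at D250, and all 3 directions held under all 3 rescalings. Its second entry was far lower and lay in the same direction, with 0.652, 1.71 and 2.07 FPKM in Kashmiri and 2.30, 4.53 and 14.0 FPKM in Jersey. LCP1 moved up the order of all named genes from rank 1192 in Kashmiri at D15 to rank 112 in Jersey at D250. These ranks too rest on the listed values.

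CORO1A encodes coronin 1A, a filament-binding protein of white blood cells. It had 239 FPKM at D15, then 499.6 at D90 and 153 at D250 in Kashmiri. Jersey had 779 FPKM at D15, then 398 at D90 and 436 at D250. The breed order depended on the stage, with a log2 ratio of Jersey over Kashmiri of 1.70 at D15, then -0.33 at D90 and 1.51 at D250, where the D90 ratio turned positive under the sum rescaling.

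LSP1 encodes a filament-binding protein of white blood cells, and the study used it as a marker of cells other than epithelium when it checked the capture. By qPCR of D90 samples, the study found LSP1 lower in captured cells than in all milk cells, and called its abundance there very low. Those relative qPCR levels are an unlike measure to FPKM and were not compared with it here. LSP1 had 139 FPKM at D15, then 254 at D90 and 68.6 at D250 in Kashmiri. In Jersey it had 334 FPKM at D15, then 170.0 at D90 and 149 at D250. Its breed log2 ratio took the values 1.27, -0.58 and 1.12 in stage order, the same signs as for CORO1A, and its signs held under all 3 rescalings. The second LSP1 entry stayed between 0.301 and 2.14 FPKM. Over the 6 groups, the log2 levels of CORO1A and LSP1 had a Pearson correlation of 0.95, against 0.18 for LCP1 and LSP1. These coefficients describe 6 pooled values that share their libraries and scaling.

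The 3 genes known mainly from white blood cells therefore did not keep a fixed proportion. LCP1 stood at 0.509 times LSP1 in Kashmiri at D15, then 0.754 at D90 and 2.53 at D250. In Jersey the same ratio was 1.07 at D15, then 4.59 at D90 and 8.58 at D250. The ratio of LCP1 to CORO1A ran in the same order, from 0.295 to 1.13 in Kashmiri and from 0.457 to 2.93 in Jersey. In both breeds LCP1 was higher against both genes at each later stage. A ratio within a group is free of the scaling, and it shows unequal change without saying which gene changed.

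EZR encodes ezrin, which ties actin filaments to the cell membrane. It had 270.3 FPKM at D15, then 205 at D90 and 157 at D250 in Kashmiri. The Jersey levels were 247 FPKM at D15, then 112 at D90 and 149 at D250. EZR was the only one of the 9 genes whose Jersey value was below the Kashmiri value at all 3 stages, with log2 ratios of -0.13, -0.87 and -0.07, but the D15 ratio turned positive under the sum rescaling and the D250 ratio under the median of ratios. Against ACTG1, EZR stood at 0.297 in Kashmiri at D15 and at 0.0830 in Jersey at D90, the ends of its range.

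**Figure D2:**
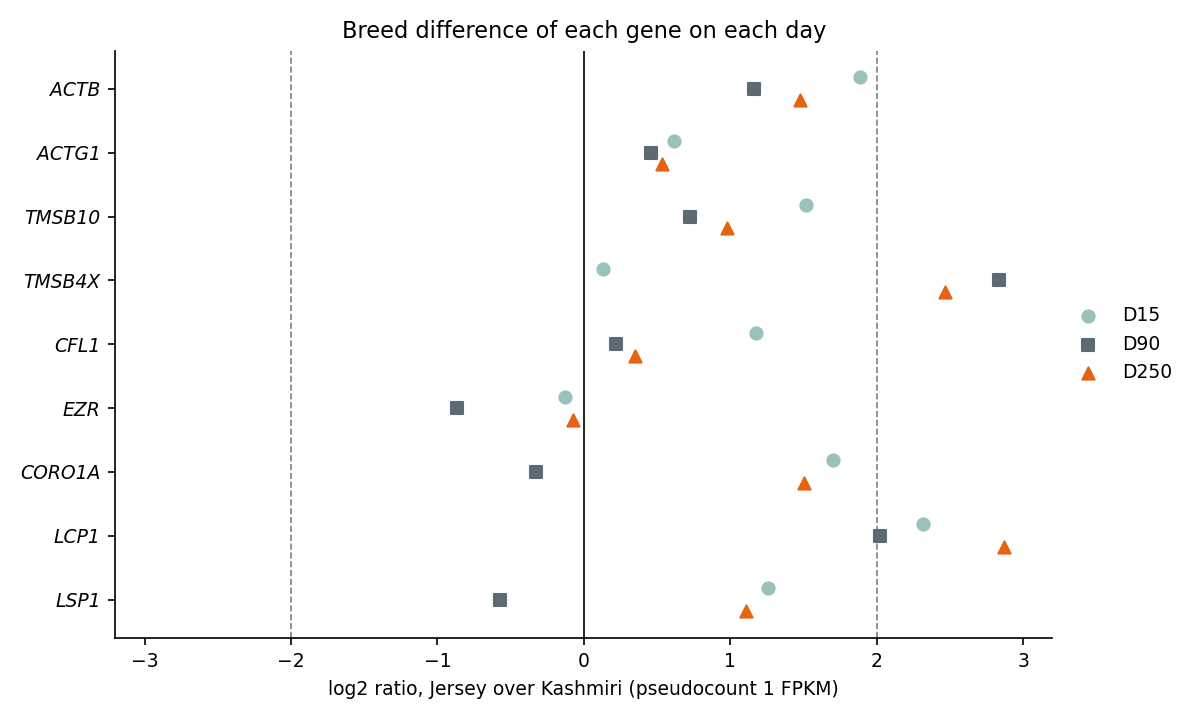
Log2 ratio of Jersey over Kashmiri FPKM (horizontal axis) for each gene at D15, D90 and D250, with a pseudocount of 1 FPKM, where dashed lines mark the limit of 2 to both sides. LCP1 lay beyond the limit at all 3 stages, at 2.32, 2.02 and 2.87, and EZR lay just below 0 at D15 and D250.

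The breeds were then compared at each stage over all genes. A gene with 1 FPKM or more in a breed was tested, and it passed when the log2 ratio, after adding 1 FPKM to each value, was 2 or more towards Jersey or Kashmiri. At D15, 1 of the 8 genes tested passed, LCP1, while 8.57% of all genes did. At D90, with TMSB4X left out, 1 of 8 passed, again LCP1, against 11.7% of all genes. At D250, with TMSB4X left out, 1 of 8 passed, LCP1 once more, against 12.3% of all genes. TMSB4X also lay past the limit at D90 and D250, but it reached 1 FPKM in Jersey alone, so it was tested only where it was high and its passing supports nothing. Every call was towards Jersey, and LCP1 at D90 lay under the limit when rescaled by the upper quartile. Under the sum rescaling 3 genes passed at D15, against 9.45% of all genes. TMSB4X was not tested at D15, where its main entry was under 1 FPKM in both breeds. At a lower limit of 1, 6 of 8 genes were higher in Jersey at D15, against 15.9% of all genes. Of the 8 without TMSB4X, ACTB and LCP1 were higher in Jersey at this limit at D90, against 17% of all genes. At D250 these were ACTB, LCP1, CORO1A and LSP1, against 22.8% of all genes. Without TMSB4X, the median log2 ratio of the genes tested was 1.39 at D15, then 0.34 at D90 and 1.04 at D250, against -0.13, -0.03 and -0.10 over all genes. Among all genes with at least 100 FPKM in a breed, 17.4%, 24.7% and 45% were higher in Jersey at the limit of 2.

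The stages were compared within each breed by the same count. In Kashmiri, 0 of 8 genes passed for D90 over D15, D250 over D90 and D250 over D15, against 7.5%, 1.98% and 4.05% of all genes. In Jersey, 1 of 9 passed for D90 over D15, 0 of 9 for D250 over D90 and 1 of 9 for D250 over D15, against 6.76%, 4.18% and 12.6% of all genes. The gene that passed was TMSB4X, on its main entry alone and with 1 FPKM or more only at the later stage, so 0 of 8 passed without it. No count of 0 comes from a test with replicates.

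**Figure D3:**
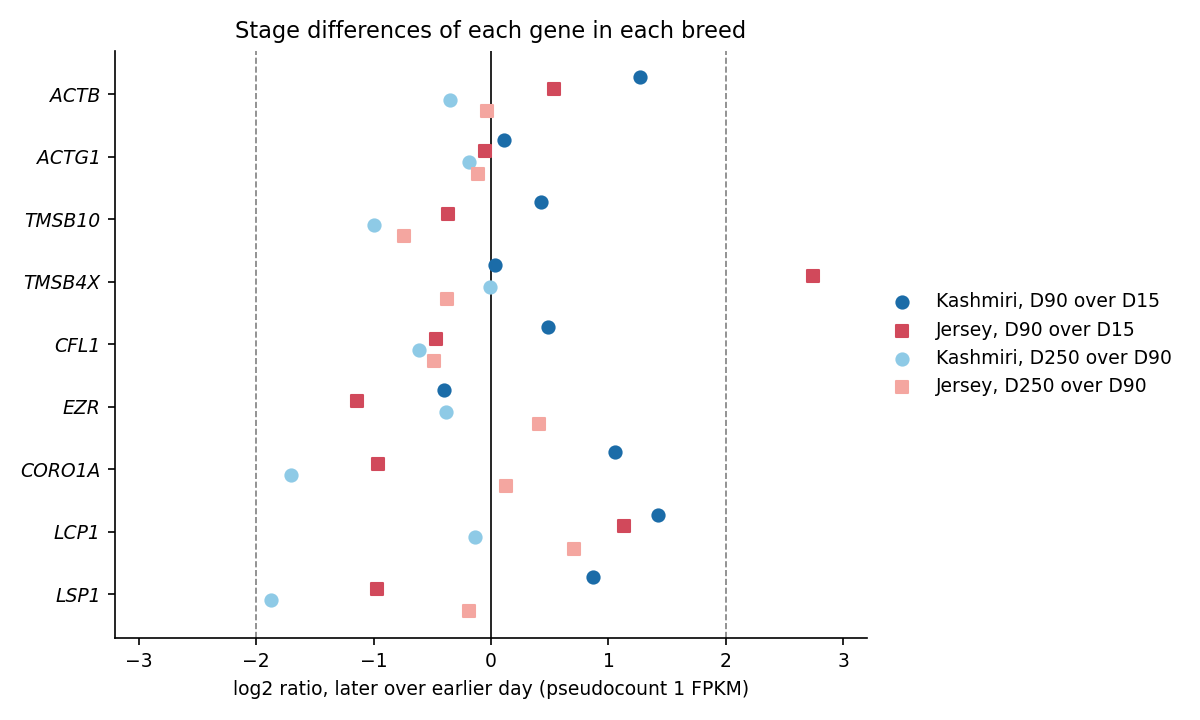
Log2 ratio of FPKM between successive stages (D90 over D15 and D250 over D90) for each gene in Kashmiri and Jersey cattle, with a pseudocount of 1 FPKM and dashed lines at the limit of 2 to both sides. For D90 over D15, CFL1, TMSB10, CORO1A and LSP1 lay above 0 in Kashmiri and below 0 in Jersey.

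From D15 to D90 the breeds took different courses. In Kashmiri, 7 of the 8 genes tested were higher at D90, with LCP1 at a log2 ratio of 1.44, ACTB at 1.27 and CORO1A at 1.06, and EZR was lower at -0.40, while 49.8% of all genes tested were higher. No sign changed under the 3 rescalings. In Jersey, only ACTB at 0.54, LCP1 at 1.13 and TMSB4X were higher at D90 among the 9, beside 47.6% of all genes, and ACTG1 changed sign under each rescaling. EZR was at -1.14, and CORO1A and LSP1 were both at -0.97. Between D90 and D250 all 8 genes tested were lower in Kashmiri, with LSP1 at -1.89 and CORO1A at -1.71, beside 52.3% of all genes that were higher, but ACTB, ACTG1, CFL1, LCP1 and EZR turned positive under the sum rescaling. Over the whole span, LCP1 was at 1.30 in Kashmiri and 1.84 in Jersey, ACTB was at 0.91 and 0.50, and these held their sign under all 3 rescalings.

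The genes were next set beside the marker lists in the 6 groups, each list taken as the mean of log2(FPKM + 1) over the markers found. LCP1 had a Pearson correlation of 0.96 with the neutrophil list and of 0.96 with the list of markers common to white blood cells. With the macrophage list LCP1 had 0.89. ACTB had 0.96 with the macrophage list, 0.95 with the common list and 0.94 with the neutrophil list, so these lists barely differed for it. ACTG1 had 0.90 with the neutrophil list. EZR had 0.82 with the epithelial list, against -0.55 with the neutrophil, -0.62 with the common and -0.67 with the macrophage list. LSP1 stayed between -0.18 and 0.32 with all 8 lists, and CORO1A between -0.26 and 0.58. These values rest on 6 points that share libraries and scaling, and the part of each cell type in the levels of the genes was not tested.

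**Figure D4:**
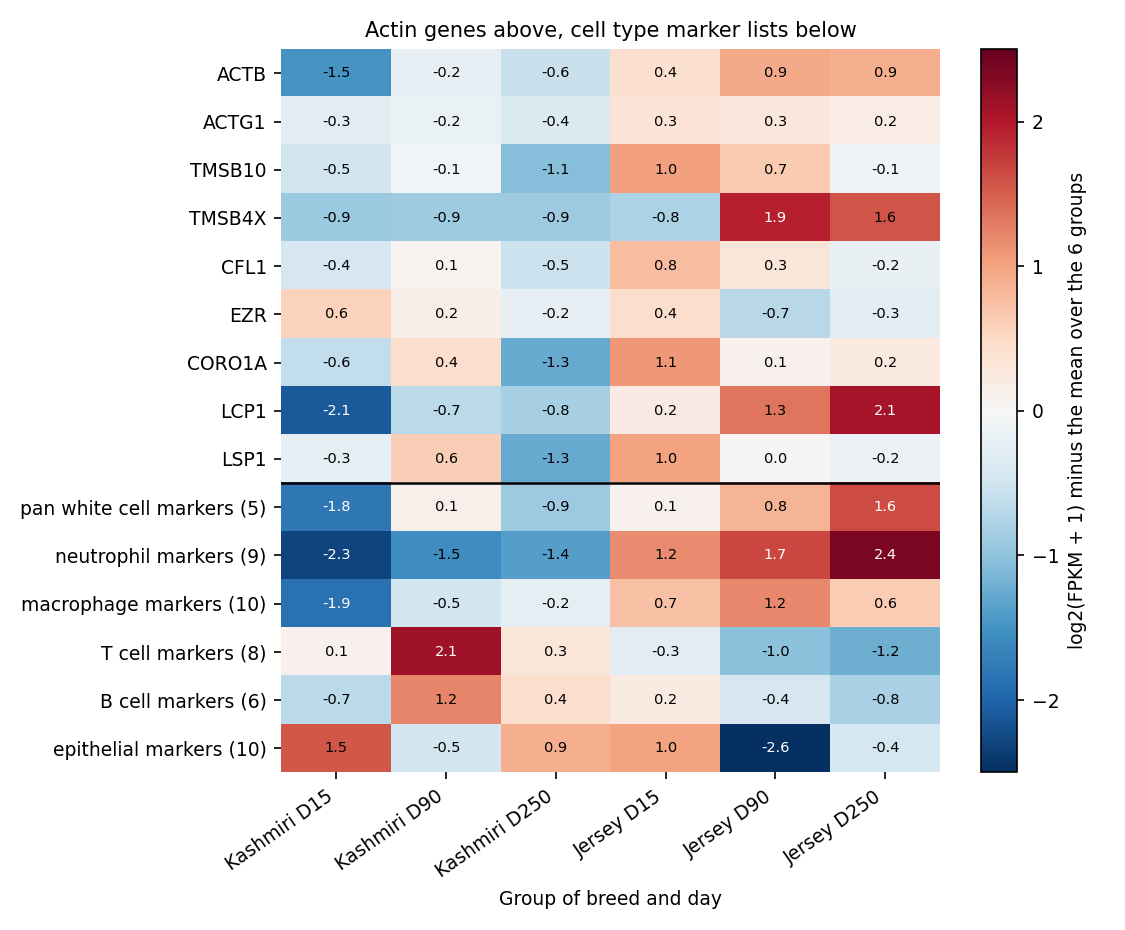
Heat map of log2(FPKM + 1) minus the mean over the 6 groups, for 9 actin genes (above the line) and for 6 marker lists (below it, mean over the markers found, whose number is in brackets), with groups of breed and stage in columns. LCP1 and the neutrophil list both had their lowest cell in Kashmiri at D15 and their highest in Jersey at D250.

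The T cell markers followed another course. CD3E, a part of the T cell receptor complex and the most abundant of these markers, had 659 FPKM in Kashmiri at D90 and 31.7 FPKM in Jersey at D90. As deposited, 6 of 8 markers were lower in Jersey at D15, 8 of 8 at D90 and 7 of 8 at D250. IL7R was near equal at D90, at 58.8 FPKM in Kashmiri and 57.2 in Jersey, and higher in Jersey at D15 and D250. CD4 was higher in Jersey at D15. Among the 3 stages, CORO1A and LSP1 were higher in Kashmiri than in Jersey at D90 alone, with the CORO1A order turned under the sum rescaling. The summed T cell markers were higher in Kashmiri at every stage, with 355, 1530 and 371 FPKM against 225, 152 and 148 FPKM in Jersey, whereas CORO1A and LSP1 were higher in Jersey at D15 and D250. Over the 6 groups the T cell list had a correlation of -0.05 with CORO1A and of 0.16 with LSP1. The part of T cells in these levels was not tested.

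A wider set of 84 genes of actin control, which leaves out the 10 names above, was counted in the same way, and 79 were found. Between the breeds, 8 of 68 tested passed towards Jersey and 1 towards Kashmiri at D15, against 6.45% and 2.12% of all genes. At D90, 4 of 69 passed towards Jersey and 2 towards Kashmiri, against 6.58% and 5.17%. At D250, 11 of 70 passed towards Jersey and 0 towards Kashmiri, against 10.9% and 1.37%, with no test behind the 0. The median log2 ratio was 0.66, 0.50 and 0.77, and it stayed above 0 under the 3 rescalings except at D250 under the sum rescaling, where it was -0.03 beside -0.74 over all genes. For Jersey D250 over D15, 10 of 68 passed upwards and 2 downwards, against 9.17% and 3.42% of all genes. The other Jersey steps had fewer, with 2 up and 1 down of 69 for D90 over D15, and 3 up and 1 down of 68 for D250 over D90. Of all genes, 6.76% and 4.18% passed in either direction for these steps. In Kashmiri the counts were 2 up and 1 down of 70 for D90 over D15, 0 of 71 for D250 over D90, and 4 up and 0 down of 72 for D250 over D15. Of all genes, 7.5%, 1.98% and 4.05% passed in either direction for these 3 comparisons.

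The formins FMNL1 and FMNL3, which lengthen straight filaments, passed the limit towards Jersey at all 3 stages as deposited, where FMNL3 at D15 and FMNL1 at D90 lay just under it when rescaled by the upper quartile. FMNL3 reached 13.3 FPKM in Kashmiri and 300 FPKM in Jersey at D250. LIMK2, a kinase that switches cofilin off, had 9.43 FPKM in Kashmiri and 276 FPKM in Jersey at D250, while at D15 it had 30.4 and 31.4 FPKM, an order that turned under the upper quartile. SSH2, another gene of the cofilin cycle, had 15.7 FPKM in Kashmiri and 193 FPKM in Jersey at D250. At D90 SSH2 had 43.1 FPKM in Kashmiri and 17.0 FPKM in Jersey, the opposite order.

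**Figure D5:**
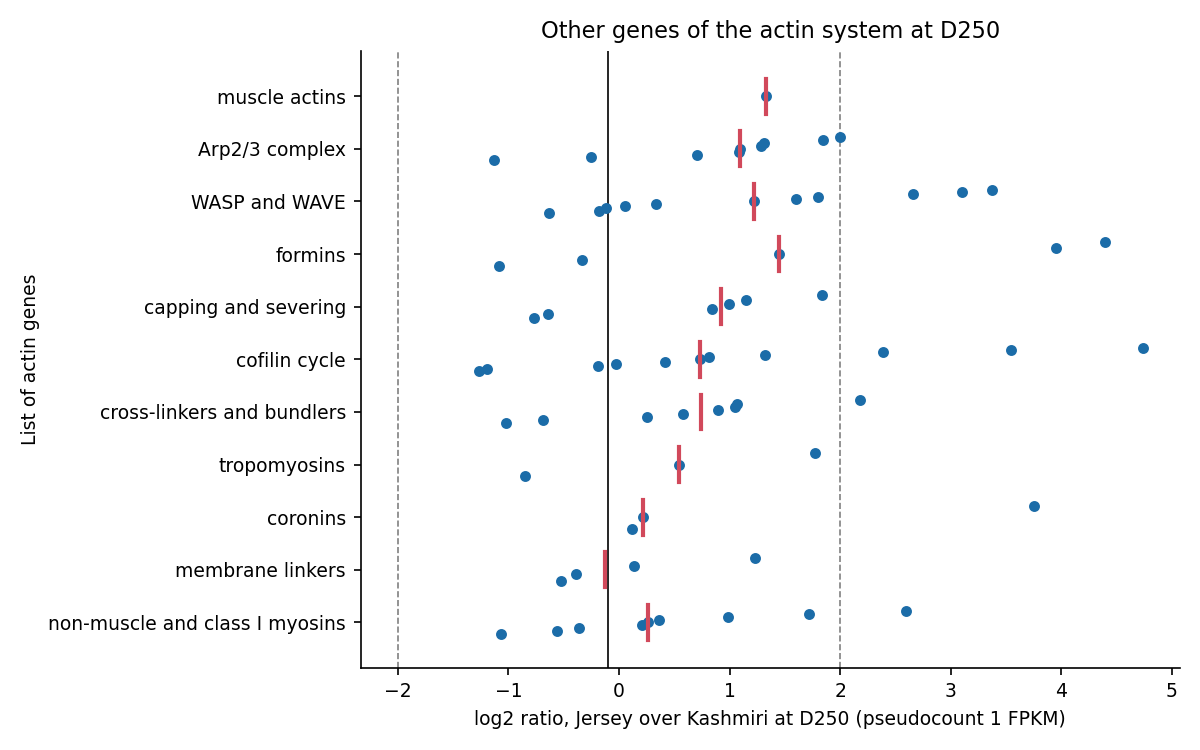
Log2 ratio of Jersey over Kashmiri at D250 with a pseudocount of 1 FPKM, by list of actin genes, where dots are genes, red bars the list medians, dashed lines the limit of 2 to both sides and the black line the median of all genes tested. The median of the formins was 1.45, and that of the membrane linkers was -0.13.

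The Arp2/3 complex branches new filaments from old ones, and its 9 genes were all tested. ARPC1B, its most abundant member, had 499.6, 591 and 300.3 FPKM in Kashmiri and 976, 745 and 639 FPKM in Jersey. ACTR3, another subunit, had 91.3 FPKM in Kashmiri and 368 FPKM in Jersey at D250. ARPC5L went the other way, with 78.0 FPKM in Kashmiri and 18.3 FPKM in Jersey at D90, and it passed the limit there except under the sum rescaling. HCLS1, a blood cell protein that works with this complex, had 24.5 and 263 FPKM in the breeds at D250. CYFIP2, a subunit of the WAVE complex that activates it, had 23.8 FPKM in Kashmiri and 4.63 FPKM in Jersey at D15, and it passed the limit towards Kashmiri at D15 and D90, though not at D15 under the sum rescaling. DSTN, the cofilin relative destrin, had 68.1 FPKM in Kashmiri and 25.4 FPKM in Jersey at D90. Among the membrane linkers, MSN, the ezrin relative moesin, had 25.2, 63.8 and 67.3 FPKM in Kashmiri and 61.9, 165 and 159 FPKM in Jersey, the opposite breed order to EZR.

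Genes with the most similar course over the 6 groups were named for each gene by Pearson correlation of log2 values, over 4572 genes with a mean of at least 10 FPKM. For ACTB these were PKM at 0.999, an entry joining CPNE9 and MTMR14 at 0.998 and GNA15 at 0.996. PKM had 101, 337 and 248 FPKM in Kashmiri and 590, 1105 and 1114 FPKM in Jersey. For LCP1 they were CCL16, WSB1 and RAB7A, and for CORO1A they were RGS14, CNPPD1 and an entry joining CXorf38 and MED14. LSP1 was most like DOK2, RNF126 and an entry joining PPP6R1 and TMEM86B. For EZR they were snoZ30, TOM1 and PSME1. For ACTG1 they were UNC93B1, ORAI2 and ARPC4, a subunit of the Arp2/3 complex. With 6 points many genes reach such values, and 380 genes had a correlation of at least 0.9 with ACTB.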

How the data were processed

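RNA was sequenced from milk epithelial cells of 17 samples in 6 groups of breed and stage. After quality trimming in Trimmomatic, the authors mapped the reads to the bovine assembly UMD3.1 using Bowtie2 and TopHat, kept uniquely mapped reads and computed FPKM with Cufflinks and Cuffdiff. The deposited FPKM are 1 value per entry and group, so replicates were pooled and no test, interval or error was possible. The column named Local was taken as Kashmiri. Of entries that shared a name, the one with the largest mean was used. Log2 ratios were taken without a pseudocount for single genes and with a pseudocount of 1 FPKM for counts, where at least 1 FPKM in either group was required. The members and lists were chosen with earlier results of these data known. Other genes were named by rule: in each list the gene with the highest mean, the highest and the lowest ratio among genes with at least 10 FPKM, and the 3 genes most like each member. Only some of the genes picked by that rule are given in the text. GAPDH, CSN2, KRT18 and CD3E, outside that rule, were named after their values were seen. On simulated data the counting recovered 200 of 200 changed genes, with 0 of 3011 unchanged genes called. The changes were set far past the limit, the other genes varied little and low genes were left out. This outcome was thus fixed in advance, so it checks the code and gives no accuracy. That run covered the counting step for Kashmiri D90 over D15 only. How well the counting does on the pooled values, whose spread between cows is unknown, was not tested. Alternatives were a limit of 1, a pseudocount of 0.1, a filter of 0.01 FPKM, 3 rescalings and summed entries. Computation used pandas 2.3.3 and numpy 2.4.6 under Python 3.11.15, and plots used matplotlib 3.10.9. One list of actin regulators is not reported here. Sequences and genome positions were not analysed here.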

Additional observations from a re-analysis of the deposited data

Results flagged for a closer look

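For 5 genes the ratio between stages had opposite signs in the breeds, by at least 0.3 on the log2 scale in each. For D90 over D15, CFL1 was at 0.49 in Kashmiri and -0.47 in Jersey, and TMSB10 was at 0.43 and -0.37. CORO1A was at 1.06 in Kashmiri and -0.97 in Jersey, and LSP1 was at 0.87 and -0.97. For D250 over D90, EZR was at -0.38 in Kashmiri, a sign that turned under the sum rescaling, and at 0.41 in Jersey. The gap of 0.3 held under all 3 rescalings for CORO1A and LSP1 alone. Under the sum, the upper quartile and the median of ratios, Jersey TMSB10 was at -0.10, -0.22 and -0.23, and Jersey CFL1 was at -0.20, -0.32 and -0.33. Jersey EZR was at 0.00096 under the sum and 0.15 under the upper quartile. With 1 pooled value per group these differences between the breeds were not tested.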

How the results depend on the processing

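No paired analysis was possible because each group has 1 pooled value. Leaving out a replicate was not run for the same reason. At a limit of 1, Kashmiri had 3 genes for D90 over D15, and 2 each for D250 over D90 and over D15. Of all genes, 33.5%, 17.7% and 25.7% passed there. Jersey had 3 for D90 over D15 and 4 for D250 over D15, against 29.8% and 42.4%. Between the breeds there were 6 at D15 and 5 at D250, against 28.9% and 34.5%. TMSB4X is counted in each of these Jersey stage comparisons and between the breeds at D250. Rescaling by the median of ratios gave 1 for Kashmiri D250 over D90, against 2.15% of all genes. Rescaling to the sum of all genes but 6 milk protein genes gave 1 for Kashmiri D250 over D15, against 7.61%. It gave 3 for the breeds at D15, against 9.45%. The upper quartile gave 1 for the breeds at D90, against 11.9%, and that gene was TMSB4X, with LCP1 under the limit. Summing all entries of a name gave 0 for Jersey D90 over D15 and 0 for Jersey D250 over D15. Leaving out TMSB4X, or keeping only genes with at least 100 FPKM, both chosen after seeing the data, gave 0 and 0 for these and 1 for the breeds at D90 and at D250. Among all genes with at least 100 FPKM, 16.5% passed for Jersey D90 over D15 and 33.9% for Jersey D250 over D15. Between the breeds 37.6% of them passed at D90 and 46.4% at D250. Of 81 single ratios, 27 moved by over 0.58 under the sum rescaling, and 0 under the upper quartile or the median of ratios. The causes were not tested. The number of reads behind each gene's value is unknown, library depths were not analysed here, and values under 1 FPKM are the least certain.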
